A study of Mus musculus with 6 samples.

Results

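Interferon-stimulated genes are the genes that cells switch on when they sense an interferon. The members described here are 45 such genes. They were chosen by name, with earlier results of these data known. Rows of the deposited gene table carrying those names were taken, and 44 of the 45 names were found among 33495 listed genes. No row is named Gbp7, and the row named Gbp6 carries an identifier that a later annotation calls Gbp7. Of the 44 members, 43 passed the filter on low counts and were tested among 11794 genes, and Mx1 did not. Genes of antigen presentation are not among the members.

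The libraries come from 5′-capped liver RNA of male mice of a C57BL6 background, all aged 2 months. Wild-type animals gave 3 libraries, and animals labelled SHP -/- gave the other 3. SHP, the product of Nr0b2, is an orphan nuclear receptor that cannot bind DNA itself and acts as a corepressor of its partners, and no treatment or infection is named in the labels. The labels name no driver or cell type to which the loss of SHP is limited. The comparison asks which transcripts differ between the genotypes. Nr0b2 itself was read at 17.7, 12.3 and 13.5 counts relative to the scaled library total (CPM) in wild type and at 6.62, 7.07 and 10.3 CPM in knockout. Every knockout library was below every wild-type library for Nr0b2, but transcripts remained (log2 difference −0.81 ± 0.25 SE, adjusted p = 0.0443 by limma voom), and it kept this call in 1 of the 6 fits with a library removed, that without knockout library 3 (adjusted p from 0.0351 to 0.124 over the 6 fits).

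Library totals over genes ran from 4494353 to 7225842 counts. Mitochondrially encoded genes took 10.2% to 10.3% of wild-type counts and 5.66% to 7.10% of knockout counts. The samples were sequenced 3 to a lane, and the sources used here do not say which shared a lane, so a lane effect and the genotype effect cannot be told apart. The tissue label held: 10 hepatocyte markers summed to 89720 to 113752 CPM in wild type and 98247 to 102427 CPM in knockout.

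Interferons bind receptors on the cell surface, and kinases bound to those receptors phosphorylate STAT proteins. Type I interferons act through a complex that includes STAT2 and IRF9 and binds a DNA element called the interferon-stimulated response element (ISRE), while interferon gamma acts through the gamma-activated sequence (GAS). The induced proteins sense foreign RNA or DNA, block virus entry, translation and release, or tune the response itself. In liver, hepatocytes, Kupffer cells and endothelial cells all carry interferon receptors. RNA of a whole liver pools these cells, so a change in the number of cells of a type and a change in RNA per cell cannot be told apart in any of the values that follow.

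Promoter windows from 250 bases before to 50 after the start site were taken from RefSeq (build GRCm38.p6), and 33 of the 44 members had at least 1 such window. The ISRE was searched as GAAANNGAAA, where N is any base, on either strand, and neighbouring matches may overlap. It was in a window of 17 of the 33 members (51.5%), beside 3.81% of 8703 tested genes with a window and 3.44% of all 32851 windows. The GAS, searched as TTCNNNGAA, which reads the same on both strands, was in a window of 13 members (39.4%), beside 8.27% of tested genes and 8.30% of all windows. A match is a stretch of letters and not a site of binding. The stretches shown are those of the 3 members that rose in knockout and hold a match, and of 3 that did not pass the test and hold one as well. Each reads 5′ to 3′ in the direction of the gene, with the matches in capitals; TTTC, 2 bases and TTTC is the same element on the other strand.
Bst2, chr8:71537567-71537622, minus strand: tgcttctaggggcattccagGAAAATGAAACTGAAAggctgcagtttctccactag
Ifitm3, chr7:141010716-141010742, minus strand: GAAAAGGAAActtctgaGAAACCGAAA
Stat2, chr10:128270256-128270305, plus strand: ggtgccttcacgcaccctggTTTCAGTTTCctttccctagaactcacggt
Isg15, chr4:156200855-156200916, minus strand: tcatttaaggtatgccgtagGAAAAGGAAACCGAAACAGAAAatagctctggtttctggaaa
Ifit1, chr19:34640765-34640833, plus strand: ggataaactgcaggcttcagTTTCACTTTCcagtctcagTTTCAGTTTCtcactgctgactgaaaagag
Gbp2, chr3:142620584-142620633, plus strand: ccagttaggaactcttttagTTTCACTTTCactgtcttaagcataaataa

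Between the genotypes, 6 of the 43 tested members (14.0%) rose in knockout at an adjusted p under 0.05, beside 894 of 11794 genes, or 7.58%. They were Lgals3bp, Bst2, Irf7, Stat2, Ifitm3 and Usp18, with log2 differences from 0.48 to 1.00. No member fell, beside 819 genes, or 6.94%, of all genes tested by limma voom. At an unadjusted p under 0.05 by limma voom there were 14 of the 43 members, 12 on the higher and 2 on the lower side. Of all 11794 genes tested, 3606 were under this limit, with 1821 of them on the higher side. Every knockout library was above every wild-type library for 12 members (27.9%, beside 17.2% of all genes tested), and below for 5 members (11.6%, beside 17.9%). Of these 12, Oas1a and Oas2 met the filter on low counts only through the knockout libraries, where they were higher. The fitted difference was above 0 for 36 of the 43 members (83.7%) and for 49.5% of all genes tested. The median difference over the members was 0.22, and −0.01 over all genes tested. Members were chosen with earlier results of these data known, so their shares beside all genes tested cannot decide whether interferon-stimulated genes shifted as a group. Of 66 further interferon-induced genes tested that are not members, 53.03% had a fitted difference above 0, with a median of 0.03. That list was chosen with the same knowledge.

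**Figure D1:**
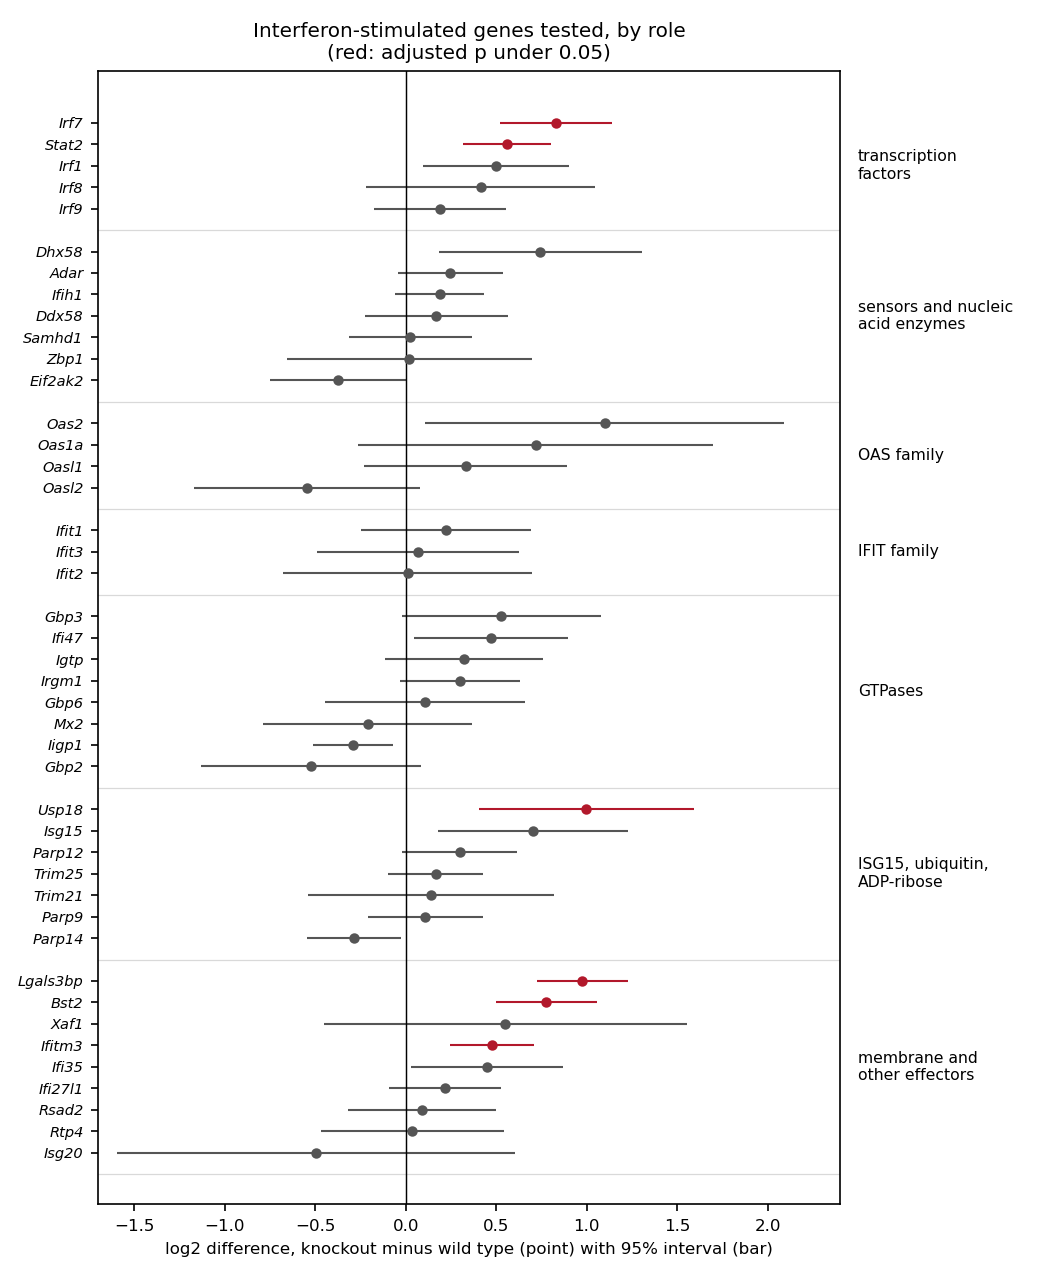
The horizontal axis gives the log2 difference of each of the 43 tested members, knockout minus wild type, as a point with its 95% interval as a bar, grouped by role. The 6 members past the threshold, in red, lie between 0.48 and 1.00, and the largest difference, 1.10 for Oas2, has a wide interval and did not pass.

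Transcription factors carry the interferon signal and prolong it, and 2 of the 5 rose. Their summed level was 146 to 164 CPM in wild type and 217 to 229 CPM in knockout. Irf7 (ENSMUSG00000025498, mm9 chr7:148448605-148452380), the factor that amplifies type I interferon production, was read at 24.9, 22.9 and 22.6 CPM in wild type and at 37.2, 42.6 and 44.7 CPM in knockout. The 3 wild-type values lay close together and well below the lowest knockout value. The Irf7 mean was 23.4 ± 1.28 CPM for wild type against 41.5 ± 3.87 CPM for knockout (SD, n = 3 each), and the log2 difference was 0.83 ± 0.14 SE (adjusted p = 0.00253, limma voom with Benjamini-Hochberg adjustment). Stat2 (ENSMUSG00000040033, mm9 chr10:127707632-127729905), the subunit that brings the activation domain to the ISRE-binding complex, was read at 55.8, 63.6 and 60.0 CPM in wild type and at 94.5, 85.0 and 85.5 CPM in knockout. Knockout library 1 was the highest and the groups were apart. The log2 difference for Stat2 was 0.56 ± 0.11 SE (adjusted p = 0.00598, limma voom). Both calls held in each of the 6 fits that left out a library. Of the members, 10 overlap another gene with counts. Irf7 is the only such gene among the 6 that rose, and shares 46 bases with Phrf1 on the opposite strand.

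Irf9, the DNA-binding partner of Stat2 in that complex, was read at 41.5, 38.0 and 31.0 CPM in wild type and at 54.1, 36.9 and 37.5 CPM in knockout. Its groups overlapped, with only knockout library 1 above the wild-type values. The difference was 0.19 (95% interval −0.18 to 0.55, adjusted p = 0.492, limma voom). Irf9 shares 123 bases with Rnf31 on the same strand, whose counts it may hold in part. Irf1, which answers mainly to interferon gamma, was read at 32.4, 31.4 and 24.6 CPM in wild type and at 35.8, 55.6 and 35.7 CPM in knockout. Here knockout library 2 stood above the others, and the difference of 0.50 ± 0.19 SE did not pass (adjusted p = 0.0897, limma voom). Irf8, a factor of myeloid cells and lymphocytes, had a difference of 0.41 ± 0.29 SE (adjusted p = 0.371, limma voom), and its span overlaps that of Usp10 on the same strand, so its counts are uncertain.

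**Figure D2:**
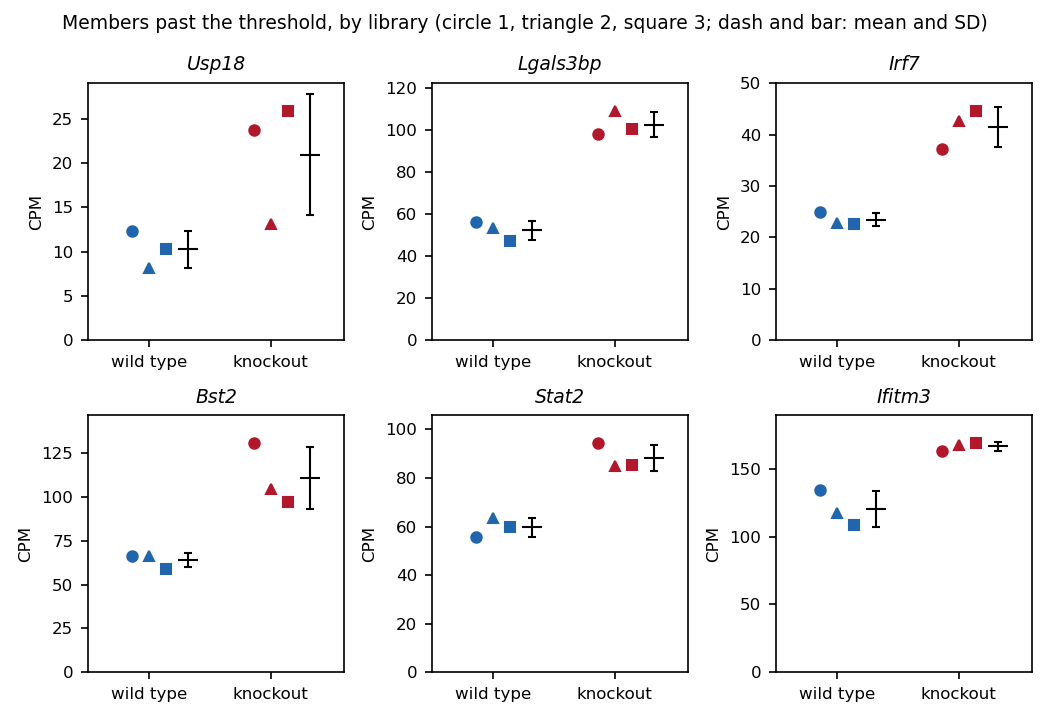
Each panel plots 1 of the 6 members past the threshold, with CPM from 0 on the vertical axis, 1 symbol per library (circle 1, triangle 2, square 3) and the mean with its SD as a dash and bar. The groups are apart in all 6 panels, and in the Usp18 panel knockout library 2, at 13.2 CPM, lies just above wild-type library 1, at 12.3 CPM.

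Membrane and other effectors are a mixed group, in which some act on the virus itself, and 3 of the 9 rose. Their summed level ran from 338 to 400 CPM in the wild type and from 515 to 577 CPM in the knockout. Lgals3bp (ENSMUSG00000033880, mm9 chr11:118254065-118263406), a secreted glycoprotein that binds galectins, was read at 56.3, 53.2 and 47.3 CPM in wild type and at 98.2, 109 and 100 CPM in knockout. All 3 knockout libraries were close together and far above the wild type. The Lgals3bp mean was 52.3 ± 4.56 CPM for wild type against 103 ± 5.85 CPM for knockout (SD, n = 3 each), a log2 difference of 0.98 ± 0.12 SE (adjusted p = 0.000227, limma voom). This was the smallest adjusted p among the members, and the difference stayed between 0.90 and 1.03 when a library was left out.

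Bst2 (ENSMUSG00000046718, mm9 chr8:74058163-74061328), also called tetherin, holds budding virus particles to the cell surface. It was read at 66.2, 66.3 and 59.1 CPM in wild type and at 131, 104 and 97.2 CPM in knockout, with knockout library 1 the highest and no overlap. The log2 difference for Bst2 was 0.78 ± 0.13 SE (adjusted p = 0.00205, limma voom). Ifitm3 (ENSMUSG00000025492, mm9 chr7:148195489-148196612), a membrane protein that hinders the fusion of virus with the cell, was read at 134, 118 and 108 CPM in wild type and at 163, 167 and 169 CPM in knockout. The knockout values were nearly level and the wild-type values spread more. Its difference of 0.48 ± 0.11 SE passed (adjusted p = 0.0112, limma voom), but not without wild-type library 3, the lowest (adjusted p = 0.0670).

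The other 6 effectors did not pass, with differences from −0.50 for Isg20, an RNA-digesting enzyme, to 0.55 for Xaf1, a protein that promotes cell death. Ifi27l1, a row whose identifier is now called Ifi27 and which belongs to a family of small membrane proteins, was read at 74.4, 87.1 and 73.4 CPM in wild type and at 114, 88.2 and 76.0 CPM in knockout. Knockout library 1 alone stood out, and the groups overlapped (difference 0.22, 95% interval −0.09 to 0.53). Ifi35 was read at 25.8, 22.0 and 15.6 CPM in wild type and at 29.5, 31.6 and 24.6 CPM in knockout, again with overlap (difference 0.45 ± 0.20 SE, adjusted p = 0.139, limma voom). Rsad2, known as viperin, which makes a nucleotide that halts viral RNA synthesis, and Rtp4 differed by 0.09 ± 0.19 and 0.04 ± 0.24 (SE).

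Of the 7 members that attach, remove or read ISG15, ubiquitin or ADP-ribose, 1 rose. The 7 together summed to 274 to 283 CPM in wild type and 278 to 334 CPM in knockout. Usp18 (ENSMUSG00000030107, mm9 chr6:121195925-121220934), which strips ISG15 from proteins and damps signalling at the type I receptor, was read at 12.3, 8.10 and 10.3 CPM in wild type and at 23.7, 13.2 and 25.9 CPM in knockout. Knockout library 2 was close to the wild type, and the remaining knockout libraries were well above it. The difference was 1.00 ± 0.28 SE (adjusted p = 0.0289, limma voom). It rested on few reads, 39 to 193 counts per library, and was lost without wild-type library 2 or 3 and without knockout library 1 or 3, with adjusted p up to 0.123. Isg15, the ubiquitin-like protein that Usp18 removes, is named here after its values were seen: it was read at 9.04, 7.90 and 6.51 CPM in wild type and at 15.1, 10.02 and 13.3 CPM in knockout. Its groups did not overlap, with knockout library 2 again the lowest of its group. The difference of 0.70 ± 0.24 SE did not pass (adjusted p = 0.0690, limma voom) and passed without knockout library 2 (adjusted p = 0.0455).

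Trim25, the ubiquitin ligase that activates the RNA sensor RIG-I, was read at 83.8, 101 and 109 CPM in wild type and at 116, 101 and 111 CPM in knockout, with overlap (difference 0.17 ± 0.12 SE). Parp9 was read at 56.3, 69.2 and 45.1 CPM in wild type and at 63.9, 56.4 and 59.7 CPM in knockout. It shares bases with Dtx3l on the opposite strand, whose counts it may hold in part, and its difference was 0.11 ± 0.15 SE. Parp14, an enzyme that adds ADP-ribose to proteins, went the other way: every knockout library was below every wild-type library, with a difference of −0.29 ± 0.12 SE (adjusted p = 0.128, limma voom). Parp12 and Trim21, an antibody receptor inside the cell, had differences of 0.30 ± 0.15 and 0.14 ± 0.32 (SE).

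Sensors and nucleic acid enzymes find or alter foreign RNA and DNA, and none of the 7 passed the test. Their summed level was 175 to 178 CPM in wild type and 181 to 204 CPM in knockout. Dhx58, or LGP2, which regulates the RNA sensors RIG-I and MDA5, was read at 10.1, 12.3 and 8.42 CPM in wild type and at 24.0, 12.0 and 17.0 CPM in knockout. Knockout library 2 lay within the wild-type range while libraries 1 and 3 were above it. The difference of 0.74 ± 0.26 SE did not pass (adjusted p = 0.0708, limma voom), but passed without knockout library 2 (0.97, adjusted p = 0.0217). Ifih1, which is MDA5, was read at 52.7, 50.5 and 53.04 CPM in wild type and at 56.8, 60.9 and 60.1 CPM in knockout. The groups were apart by a small step, a difference of 0.19 (95% interval −0.06 to 0.43).

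Adar, the enzyme that edits adenosine in double-stranded RNA, was read at 31.4, 35.1 and 29.5 CPM in wild type and at 38.8, 38.9 and 36.0 CPM in knockout, also without overlap (difference 0.25 ± 0.13 SE). Eif2ak2, or PKR, the kinase that halts translation when it binds double-stranded RNA, was lower in every knockout library, with a difference of −0.37 (95% interval −0.75 to 0.01, adjusted p = 0.171, limma voom). Ddx58, which is RIG-I, had a difference of 0.17 ± 0.18 SE. Samhd1, which depletes nucleotides, and Zbp1, which binds left-handed nucleic acids, had differences of 0.03 ± 0.16 and 0.02 ± 0.32 (SE).

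The OAS enzymes make a messenger that activates the RNA-digesting enzyme RNase L, and none of the 4 passed the test. They were read at low levels that summed to 16.4 to 21.1 CPM in wild type and 18.1 to 24.6 CPM in knockout. Oas2 was read at 2.56, 0.831 and 3.34 CPM in wild type and at 5.02, 3.73 and 4.83 CPM in knockout. Its groups did not overlap and its difference, 1.10 ± 0.46 SE, was the largest of any member, but with 4 to 36 counts per library it did not pass (95% interval 0.11 to 2.09, adjusted p = 0.124, limma voom). Oasl2, an OAS-like protein, was read at 7.17, 7.07 and 8.73 CPM in wild type and at 4.79, 3.93 and 6.71 CPM in knockout. Every knockout library was below the wild type, with a difference of −0.55 ± 0.29 SE (adjusted p = 0.224, limma voom). Oasl1, which lacks the enzyme activity and represses translation of Irf7, was read at 6.65, 6.65 and 7.15 CPM in wild type and at 8.22, 6.68 and 10.6 CPM in knockout, with a difference of 0.33 ± 0.26 SE. Oas1a, whose counts are uncertain because near-identical copies lie beside it, differed by 0.72 ± 0.46 SE. Both Oas1a and Oas2 met the filter on low counts only through the knockout libraries.

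The IFIT proteins bind viral RNA and are among the genes that type I interferon induces most strongly, and none of the 3 passed the test. Their summed level was 25.6 to 28.2 CPM in wild type and 24.0 to 36.7 CPM in knockout. Ifit1, which recognises RNA whose cap lacks a methyl group, was read at 8.87, 10.6 and 10.3 CPM in wild type and at 11.9, 9.62 and 12.9 CPM in knockout. Ifit3 was read at 13.1, 9.35 and 11.4 CPM in wild type and at 8.68, 10.02 and 16.2 CPM in knockout. Ifit2 was read at 6.14, 5.61 and 5.40 CPM in wild type and at 3.42, 6.09 and 7.52 CPM in knockout. In all 3 genes the groups overlapped and knockout library 3 was the highest of its group. The differences were 0.22 (95% interval −0.25 to 0.69), 0.07 (−0.49 to 0.62) and 0.01 (−0.68 to 0.70), so each interval ended below a log2 difference of 1. Near-identical copies of Ifit genes lie beside them, and the sources used here do not say how reads with several alignments were counted.

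The interferon-inducible GTPases attack the membranes of vacuoles that hold bacteria or parasites, or trap virus particles, and none of the 8 tested passed. The 9 with counts, Mx1 included, summed to 550 to 637 CPM in wild type and 513 to 542 CPM in knockout. Every knockout sum was thus below every wild-type sum, but Iigp1 alone gave 411 to 486 CPM of the wild-type sums. Of the 8 tested, 5 had a fitted difference above 0, and the median difference was 0.20. Iigp1, the most abundant member in CPM, was read at 411, 486 and 459 CPM in wild type and at 394, 345 and 366 CPM in knockout. Every knockout library was below every wild-type library, and the difference was −0.29 ± 0.10 SE (adjusted p = 0.0714, limma voom). Without wild-type library 1 Iigp1 passed, at −0.36 (adjusted p = 0.0469), and no other member passed on the lower side in any fit that left out a library. Irgm1, a regulator of the other GTPases, was read at 55.1, 57.1 and 39.9 CPM in wild type and at 60.3, 70.7 and 54.6 CPM in knockout, with overlap (difference 0.30 ± 0.16 SE).

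Gbp3 was read at 9.72, 8.31 and 8.42 CPM in wild type and at 11.2, 9.62 and 16.9 CPM in knockout. Knockout library 2 fell within the wild-type range, and the difference was 0.53 ± 0.26 SE (adjusted p = 0.181, limma voom). Its neighbour Gbp2 had knockout libraries all below the wild type, with a difference of −0.52 ± 0.28 SE (adjusted p = 0.231, limma voom). The row named Gbp6 had a difference of 0.10 ± 0.26 SE. Ifi47 had a difference of 0.47 ± 0.20 SE (adjusted p = 0.125, limma voom), and passed without wild-type library 2 (adjusted p = 0.0414). Igtp, whose counts are uncertain because its span lies on that of Irgm2 on the same strand, and Mx2 had differences of 0.32 ± 0.20 and −0.21 ± 0.27 (SE). Mx1, a GTPase that blocks influenza virus and is disrupted in many laboratory strains, had 6 to 8 counts per wild-type library and 7 to 20 per knockout library, and was not tested.

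**Figure D3:**
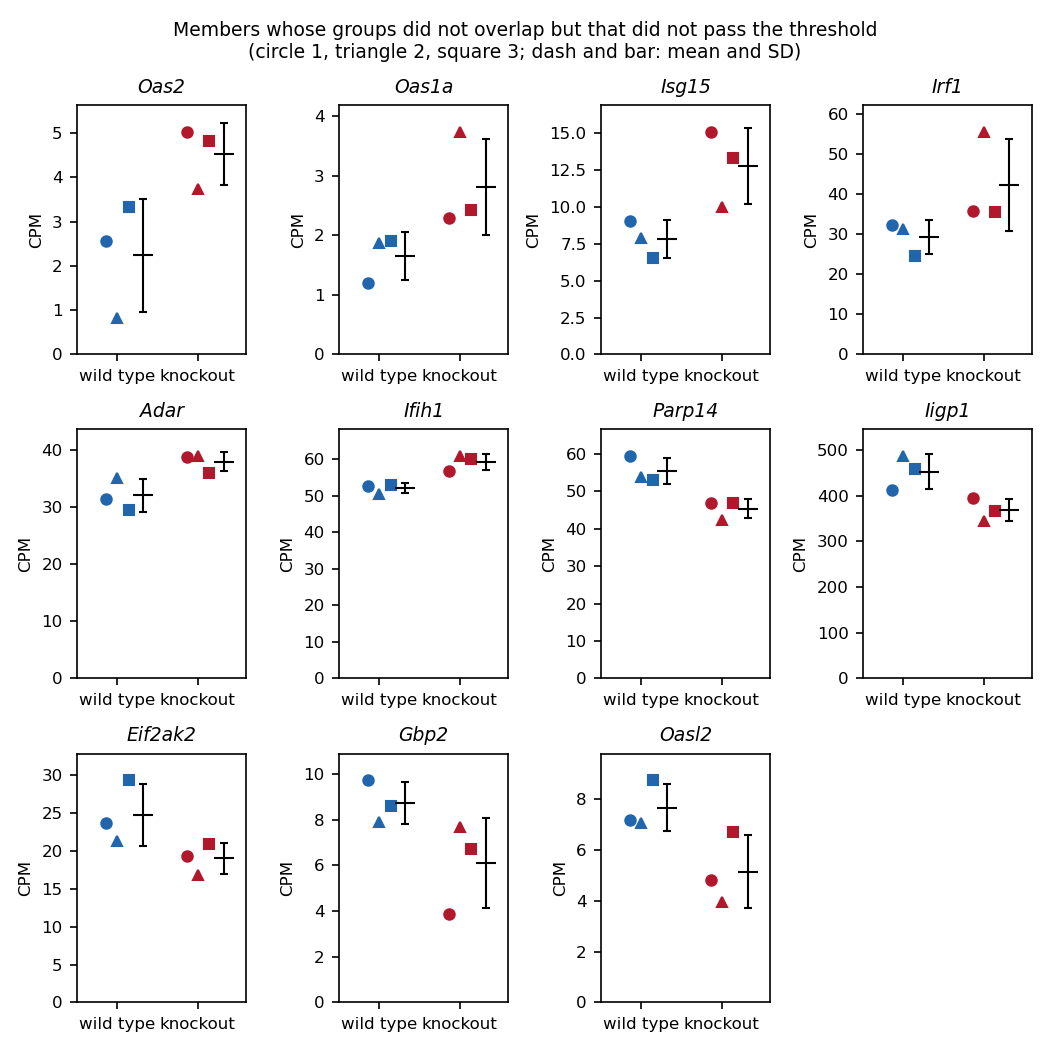
Each panel plots 1 of the 11 members whose groups did not overlap but that did not pass the threshold, with CPM from 0 on the vertical axis, 1 symbol per library (circle 1, triangle 2, square 3) and the mean with its SD as a dash and bar. In 6 panels the knockout libraries are above the wild type, by log2 differences of 0.19 to 1.10, and in 5 they are below, by −0.55 to −0.29.

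The counts of the 6 members that rose, over all 6 libraries, summed to 540 to 4860 with a median of 2556, beside a median of 464 for the 37 that did not pass. The SE of the log2 difference had a median of 0.12 for the 6 and 0.22 for the 37. Usp18 was the exception among the 6, with the fewest counts, 540, and an SE of 0.28. For 30 of the 37, the 95% interval ended below a log2 difference of 1. Divided by gene length, Ifitm3 had the highest wild-type level of any member, 195 CPM per kilobase, ahead of Iigp1 at 155, Bst2 at 84.5 and Ifi27l1 at 53.4 CPM per kilobase. In knockout Ifitm3 was at 270, Bst2 at 146 and Iigp1 at 126 CPM per kilobase. The lowest tested member in wild type was Oas2, at 0.504 CPM per kilobase.

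**Figure D4:**
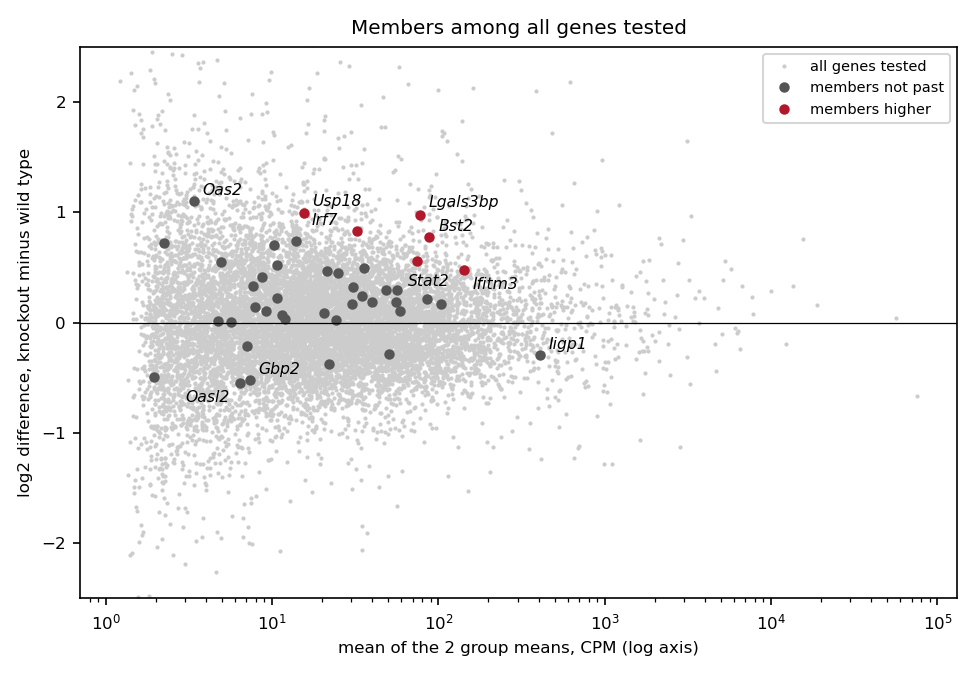
The horizontal axis is the mean of the 2 group means in CPM on a log axis, and the vertical axis is the log2 difference, knockout minus wild type, with grey points for all genes tested, dark points for members that did not pass and red points for the 6 that rose; 45 genes beyond 2.5 in size are not drawn. The red points lie between 0.48 and 1.00, and Iigp1 lies below 0 at the highest level of the members.

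The libraries of a group did not order the members evenly. Knockout library 2 was the lowest knockout library for 25 of the 43 members (58.1%), beside 33.2% of all genes tested, and wild-type library 3 was the lowest wild-type library for 21 (48.8%), beside 31.3%. With wild-type library 3 left out 4 members rose, since Ifitm3 and Usp18 no longer passed, and with knockout library 2 left out 8 rose, since Dhx58 and Isg15 passed as well. The part of these libraries in the other results was not tested.

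The promoter windows shown above were set beside the differences. Of the 5 members that rose and had a window, Bst2, Ifitm3 and Stat2 held an ISRE match, and Irf7 and Lgals3bp did not; Usp18 had no window in the table. Of the 28 that did not pass, 14 held a match. The 17 tested members with a match had a median log2 difference of 0.22 and a range of −0.52 to 0.78, and the 16 without had a median of 0.31 and a range of −0.55 to 0.98. The Bst2 matches start 130 and 124 bases before the start site, that of Stat2 222 bases before it, and those of Ifitm3 2 and 19 bases past it. Those of Isg15 start 78, 72 and 66 bases before the start site, those of Ifit1 104 and 85, and that of Gbp2 59.

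The genes around the members were read from lists of the pathway, beside all genes tested, of which 7.58% rose and 6.94% fell. Of 22 listed names of interferon ligands, older and newer names of a gene included, 1 had a row with counts. It was Ifnk, with 42 counts over all 6 libraries, and none could be tested. Among the receptors, kinases and STATs, none of 9 tested passed in either direction by limma voom. An unadjusted p under 0.05 by limma voom was found for 3 of the 9, 2 of them higher, beside 3606 of all 11794 genes tested. Knockout was above without overlap for 2 of the 9 and below for 3, beside 17.2% and 17.9% of all genes tested. Ifnar1, a chain of the type I receptor, was read at 45.7, 53.4 and 43.4 CPM in wild type and at 58.4, 57.3 and 61.8 CPM in knockout, without overlap (0.33 ± 0.12 SE, adjusted p = 0.0877, limma voom). Ifnar2, Ifngr1, Ifngr2, Jak1 and Tyk2 had differences of 0.13, 0.08, −0.16, −0.21 and 0.33.

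Of 15 tested genes of the induction pathway, which senses nucleic acid and starts interferon production, 1 rose and none fell. Mavs, the mitochondrial adaptor of the RNA sensors, was read at 73.0, 80.6 and 56.7 CPM in wild type and at 95.9, 95.6 and 92.6 CPM in knockout. The groups were apart, with wild-type library 3 the lowest (0.46 ± 0.13 SE, adjusted p = 0.0340, limma voom), and the call held only without wild-type library 1 or 2. It was lost without each of the other 4 libraries, and without wild-type library 3 the difference was 0.30 (adjusted p = 0.161). Irf3, the factor that Mavs activates, differed by 0.32 ± 0.12 SE (adjusted p = 0.0992, limma voom).

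Of 13 tested negative regulators, 1 rose and 1 fell. Irf2, a factor that competes with Irf1 for the ISRE and represses interferon-induced genes, was read at 84.1, 59.4 and 101 CPM in wild type and at 45.4, 40.7 and 40.4 CPM in knockout. The knockout values were level, the wild-type values were spread, and the groups were apart. Irf2 fell by 0.94 ± 0.17 SE on the log2 scale (adjusted p = 0.00376, limma voom), and the call held in each of the 6 fits that left out a library. Irf2bp1, a corepressor that binds Irf2, rose by 0.73 ± 0.20 SE (adjusted p = 0.0263, limma voom), a call that held only without knockout library 1 and was lost without each of the other 5, with adjusted p up to 0.0827. Socs1, which inhibits the kinases, was read at 0.853, 0 and 0 CPM in wild type and at 3.65, 4.71 and 0.671 CPM in knockout, and was below the filter.

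A further list of interferon-induced genes that are not members held 97 names, 84 with counts and 66 tested. Of these 66, 4 rose and 3 fell, beside 7.58% and 6.94% of all genes tested. A difference above 0 was found for 53.03% of the 66, beside 49.5% of all genes tested, and their median was 0.03. Those that rose were Apol9a, Apol9b, BC006779 and Uba7, the enzyme that activates ISG15. Apol9a was read at 28.7, 21.6 and 19.7 CPM in wild type and at 69.4, 36.9 and 47.0 CPM in knockout, all apart, with knockout library 1 the highest (1.08 ± 0.22 SE, adjusted p = 0.00652, limma voom). Apol9a and Apol9b are near-identical copies, so their counts are uncertain. Uba7, Apol9b and BC006779 rose by 0.83 ± 0.24, 0.58 ± 0.18 and 0.42 ± 0.11 (SE). Those that fell were Casp1, the protease of inflammasomes, Cxcl9, a chemokine induced by interferon gamma, and Plscr2. The differences of Casp1 and Plscr2 were −1.68 ± 0.47 and −1.16 ± 0.30 (SE). Cxcl9 gave 86, 77 and 80 counts in the wild-type and 22, 32 and 78 in the knockout libraries, and in CPM every knockout library was below the wild type (−0.94 ± 0.27 SE, adjusted p = 0.0324, limma voom). The Apol9a call was lost without wild-type library 3 (adjusted p = 0.0612). The calls of the other 6 were lost in 3 to 6 of the 6 fits that left out a library. The Casp1 call was lost in all of them, with adjusted p up to 0.111, and the Cxcl9 call held only without knockout library 3.

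Markers of other liver cells were summed in each library because interferon-stimulated genes are also read in immune cells. Macrophage markers, of which 18 were tested, summed to 503 to 579 CPM in wild type and 483 to 763 CPM in knockout, and 3 rose, C1qa, C1qc and Marco, by log2 differences of 0.73, 0.64 and 1.07. Of the 18, 10 had a fitted difference above 0, and the list ran from −0.87 to 1.07 with a median of 0.15. Markers of sinusoidal endothelial cells summed to 681 to 760 CPM in wild type and 468 to 741 CPM in knockout, and 1 of 14, Lyve1, rose (log2 difference 0.82). Only 3 of these 14 had a fitted difference above 0 and the median was −0.21. Of 6 with an unadjusted p under 0.05 by limma voom, only Lyve1 was higher. Beside these counts, 7.58% of all 11794 genes tested rose and 6.94% fell. An unadjusted p under 0.05 by limma voom was found for 3606 of them, 1821 higher. The macrophage and endothelial sums were both lowest in knockout library 1. Of the 6 members that rose, Bst2 and Stat2 were highest in that library among the knockouts, Irf7, Lgals3bp and Ifitm3 were lowest in it, and Usp18 was between. Markers of lymphocytes, natural killer cells and plasmacytoid dendritic cells summed to 34.0 to 37.5 CPM in wild type and 25.1 to 34.8 CPM in knockout, and 9 of the 23 with counts had at most 10 counts in all. Neutrophil markers summed to at most 4.12 CPM in any library. The part of these cell types in the differences of the members was not tested.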

How the data were processed

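Capped RNA, selected with a variant of the cap-binding protein EIF4E per the labels' protocols, was sequenced from both ends. The submitters' processing notes name Novoalign 2.05.33 and the mm9 build; no counting tool or use of strand is named in the sources used here. Whole numbers of reads were deposited by the authors as counts for Ensembl genes in each library, with the length of each gene's counted region. Of 33495 listed genes, 13901 had empty cells, 4840 of them on lines that end early, and were left out. For that reason the columns were recorded under a general unit (other) and no negative binomial model was run. Of counts from 1 to 19, 61.8% were even, so counts are not independent fragments.

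The filter kept genes that reached 1.83 CPM (10 counts in a library of median size) in 3 or more libraries and 15 counts in all. Trimmed means of M values scaled the library sizes (factors 0.966 to 1.03), and CPM in the text are on these sizes. After 0.5 was added to the counts, log2 CPM were weighted and fitted by voom of limma 3.58.1 in R 4.3.3. Genotype was the single term, and Benjamini-Hochberg adjustment ran over all genes tested. A gene passed, and is said to rise or fall, at an adjusted p under 0.05. SE and 95% intervals are those of the log2 difference, knockout minus wild type. The script was tested on simulated data. Python 3.11.15, pandas 2.3.3 and matplotlib 3.10.9 read the table, searched the promoters and drew the plots.

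Members and lists were chosen with earlier results of these data known. Members were named with all 6 values when they passed or had the largest difference of their role group, with up to 2 more per group by level; Isg15 was added after its values were seen. Of the pathway lists, fixed genes and those past the threshold were named; 1 fixed gene is not reported here. Alternatives were limma trend, robust variance moderation, median-of-ratios scaling, leaving out mitochondrially encoded genes, no filter, a replicate block, and leaving out each library. Identifiers of all 44 members matched a later annotation, used for names only.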

Additional observations from a re-analysis of the deposited data

How the results depend on the processing

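The number of members that rose was 6 under limma trend, robust moderation, median-of-ratios scaling, no mitochondrially encoded genes and no filter. It ran from 4 to 8 when a library was left out. The number that fell was 0 under these 5 settings and ran from 0 to 1. The median difference of the members ran from 0.18 to 0.30. Over all genes, the number that rose ran from 341 to 846 and the number that fell from 280 to 797, with fewer samples in each fit. Libraries with the same replicate number did not deviate together (correlations −0.0187, −0.0210 and −0.0244). With the replicate block, 8 members rose, Dhx58 and Irf1 being added, none fell, and the median difference was 0.23; Casp1 and Cxcl9 no longer passed (adjusted p = 0.0547 and 0.0515, limma voom). Under robust moderation Apol9b did not pass (adjusted p = 0.0632). Some differences near 0 changed sign. Under limma trend Ifit2 was at −0.077 and Zbp1 at −0.011, and under the replicate block Zbp1 was at −0.016. With a library left out, Samhd1 ran from −0.044 to 0.13, Zbp1 from −0.12 to 0.16, Ifit3 from −0.27 to 0.23, Trim21 from −0.13 to 0.35, Gbp6 from −0.054 to 0.34, Ifit2 from −0.28 to 0.27, Parp9 from −0.055 to 0.26, Rtp4 from −0.19 to 0.21, Ddx58 from −0.013 to 0.35 and Rsad2 from −0.12 to 0.25. Outside the members, Ifngr1 changed sign without wild-type library 1 (−0.13). The cause of these changes was not tested. Among tested members, the SE was largest (0.51) for Isg20, which had the fewest counts (69 in all).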
